A study of Mus musculus with 5 samples.

Results

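Dkk3, Clu and Gja1 are genes widely used as marks of glial cells, and their messenger RNA was compared here between adult mouse retina and newborn mouse cortex. The members were all probes of the deposited value table whose single gene symbol in the probe annotation was Dkk3, Clu or Gja1. That gave 4 of 21446 probes: 1 for Dkk3 (probe 19509), 1 for Clu (probe 2787) and 2 for Gja1 (probes 12194 and 14492). All 4 had a value on every array, so none was lost to a filter.

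Total RNA from a pool of adult retina of C57/B6 mice, labelled with the red dye Cy5, was hybridised together with total RNA from a pool of cortex of Swiss-Webster mice at postnatal day 1, labelled with the green dye Cy3. Each of 5 two-colour Agilent arrays received this pair of pools, to learn how much values vary within this array platform. The arrays are technical replicates of 1 pool per tissue, so tissue, strain, age and dye change together and cannot be told apart. An SD over n = 5 arrays holds hybridisation error, and labelling error if each array was labelled separately, but no spread between animals. The labels name no genetic change or treatment. In pooled tissue RNA the ratios do not show which cells carried a transcript.

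The deposited values were read as log10 ratios of retina over cortex. No label states the base, which is likely 10, since the range ends at 2 and -2 as for Agilent's log10 ratios. The direction is not stated in the labels either: it follows the titles, which name the retina sample first, and the neurons of both tissues go with it: 5 of 5 measured rod and cone genes had ratios above 0, from 2.15 to 4.30 log2, and 17 of 17 measured genes of newborn cortical neurons had ratios below 0. The rod and cone list holds 27 genes and the cortical neuron list 22. Both were chosen with earlier results of these data known. With the signs turned, photoreceptor genes would be the higher ones in newborn cortex. Below, log2 ratios are given as mean ± SD over n = 5 arrays. Spot intensities were not used here, so neither a level in each tissue nor the signal over background is known, and precision is limited by the number of arrays. A lower ratio can come from fewer cells of a type or from less RNA per cell, which cannot be told apart in RNA from whole tissue.

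Glial cells support neurons: they take up transmitters and potassium, supply metabolites and secrete proteins that act on their neighbours. In the retina the main glial cell is the Müller cell, which spans all layers, while astrocytes lie at the inner surface. In the newborn cortex, radial glia still serve as stem cells and young astrocytes are only beginning to mature. Dkk3 encodes a secreted glycoprotein, a divergent relative of the Dickkopf proteins that block Wnt receptors, and it is found in Müller cells and also in some neurons. Clu encodes clusterin, a secreted chaperone and apolipoprotein that binds misfolded proteins and restrains the last step of complement. Gja1 encodes the main connexin of astrocytes and radial glia, whose channels join neighbouring cells as gap junctions.

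Dkk3 and Clu were higher and Gja1 was lower in the retina pool, with the Gja1 probes far apart in size. The 3 genes were chosen by these same ratios, which were known from an earlier pass over the data, so the ratios are a description and carry no test. The probes of Dkk3 and Clu and probe 14492 of Gja1 lay at least 2-fold from equality on all 5 arrays. Of all 20282 probes with a value on every array, 8.16% did so, and 7.43% of the 11500 probes named by 1 gene.

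For Dkk3, the deposited log10 ratios were 0.788, 0.803, 0.821, 0.789 and 0.843 on arrays 1 to 5. These are 6.13-, 6.36-, 6.62-, 6.16- and 6.97-fold higher levels in retina. The arrays lay close together, with array 5 highest and array 1 lowest. The mean log2 ratio was 2.69 ± 0.08, or 6.44-fold. This was the 35th highest of the 11500 named probes. The SD was below that of most probes of like size: among 187 probes whose mean ratio lay within 0.25 log2 of the same distance from 0, 22.5% had a smaller SD.

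For Clu, the log10 ratios on arrays 1 to 5 were 0.639, 0.643, 0.635, 0.624 and 0.735. Arrays 1 to 4 lay between 4.20- and 4.40-fold higher in retina, and array 5 stood apart at 5.43-fold. The mean was 2.18 ± 0.15 log2, or 4.52-fold, and 2.11 without array 5, or 4.32-fold. Clu ranked 75th from the top among the named probes. The high value on array 5 was larger than the general shift of that array: over 460 named probes at least 2-fold higher in retina on the other arrays, array 5 differed from their mean by a median of 0.03 log2, against 0.33 for Clu. From its mean over all 5 arrays Clu lay 0.27 away on array 5, and 90.0% of all probes lay closer to theirs on that array.

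**Figure D1:**
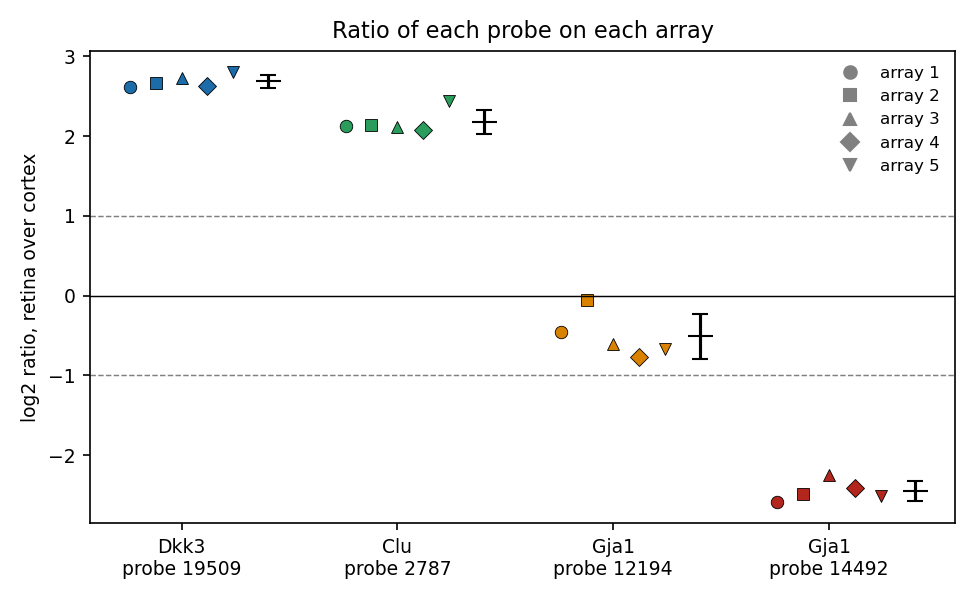
Log2 ratio of retina over cortex (vertical axis) for the 4 probes, with 1 symbol per array and the mean ± SD over 5 arrays in black at the right of each probe; dashed lines mark a 2-fold difference. Dkk3 (2.69) and Clu (2.18) lie above the upper line on all arrays, Gja1 probe 14492 (-2.45) lies below the lower line on all arrays, and Gja1 probe 12194 (-0.51) stays between the lines.

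The Gja1 probes gave the same sign and different sizes. Probe 14492 read -0.777, -0.746, -0.676, -0.726 and -0.756 in log10 on arrays 1 to 5, or 5.99-, 5.58-, 4.74-, 5.32- and 5.70-fold lower in retina. Probe 12194 read -0.136, -0.0165, -0.181, -0.232 and -0.201, or 1.37-, 1.04-, 1.52-, 1.71- and 1.59-fold lower. Array 2 is the highest for probe 12194, near equality, and the ranges of the probes do not overlap.

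The mean log2 ratio was -2.45 ± 0.13 for probe 14492, a 5.45-fold lower level in retina, and -0.51 ± 0.28 for probe 12194, a 1.42-fold lower one. Among the 11500 named probes the first was the 53rd lowest and the second stood at place 1886 from the bottom. Probe 12194 was also the noisier: 86.3% of all probes had a smaller SD between arrays, against 62.4% for probe 14492. Without array 2 its mean was -0.62, and without array 4 it was -0.44. So 1 probe puts Gja1 well past a 2-fold difference, and the other on no array.

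On the same array the probes lay 2.13, 2.42, 1.64, 1.64 and 1.84 log2 apart, with probe 14492 lower on all 5. The gap averaged 1.94 ± 0.34, a factor of 3.83, and it was widest on array 2, where probe 12194 was near 0. Such a gap is wide for this table. Of 1612 genes with 2 probes, 98.5% had probe means closer together, and the median gap was 0.32. Of the 62 such genes whose mean was at least 2-fold lower in retina, 3 had a wider gap and the median was 0.59. What distinguishes the probes (the stretch of the transcript, the strand or a related transcript) was not tested, because probe sequences were not used here.

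A value for the gene depends on which probe is used. The mean of both probes was -1.52, -1.27, -1.42, -1.59 and -1.59 log2 on arrays 1 to 5, which gave -1.48 ± 0.14, or 2.78-fold lower in retina. Its SD is smaller than that of probe 12194 alone and gives no sense of the distance between the probes.

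**Figure D2:**
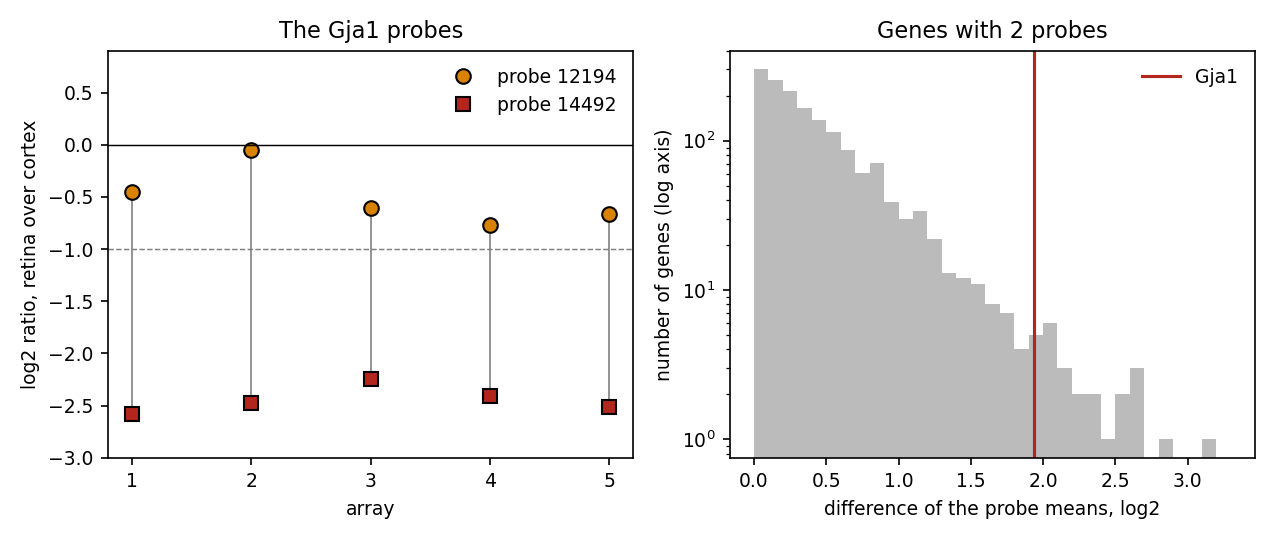
Left, log2 ratio of retina over cortex for the Gja1 probes on each of the 5 arrays, joined by a line per array, with the dashed line at 2-fold lower; right, the number of genes (log axis) by the difference between their probe means for the 1612 genes with 2 probes. Probe 14492 lies below probe 12194 on every array, and the Gja1 gap of 1.94 log2 falls in the thin right tail.

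The order of the members was Dkk3, Clu, Gja1 probe 12194 and Gja1 probe 14492 on all 5 arrays. Neighbours in this order were Dkk3 and Clu, which differed by 0.51 ± 0.10 log2, with 0.36 on array 5, where Clu was high, as the smallest difference and 0.62 on array 3 as the largest. The ratio of Clu exceeded that of Gja1 probe 12194 by 2.69 ± 0.34. From Dkk3 to Gja1 probe 14492 the ratios spanned 5.13 ± 0.13 log2, a factor of 35.1, and this span was between 4.97 and 5.31 on single arrays. These are differences of tissue ratios and do not compare the amount of 1 gene's RNA with another's.

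**Figure D3:**
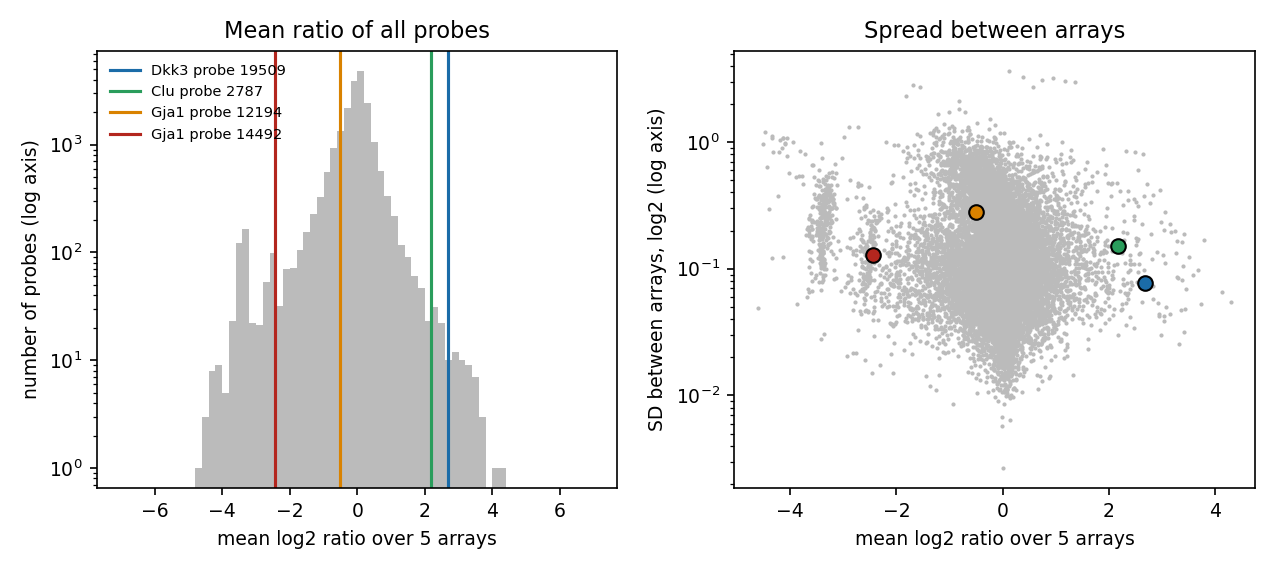
Left, the number of probes (log axis) by mean log2 ratio over 5 arrays for 20282 probes, with the members as lines; right, the SD between arrays (log axis) against that mean, with the members as coloured points in the same colours. Dkk3 (2.69) and Clu (2.18) lie in the upper tail, Gja1 probe 14492 (-2.45) in the lower one, and Gja1 probe 12194 (-0.51) in the main body with an SD of 0.28.

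Other genes known from the same glial cells did not share one direction. They were tested with limma's treat, which asks whether a mean differs from 0 by more than 2-fold, with Benjamini-Hochberg adjustment over all 8798 genes that had a value on every array; a gene's value is the mean over its probes. A gene is called higher or lower only where the adjusted p was below 0.05. Of all genes 583 passed, or 6.63%, with 2.8% higher and 3.83% lower in retina. Probe by probe, 1537 of 20282 passed, or 7.58%. The counts below leave out Dkk3, Clu and Gja1 themselves. With 6.63% of all genes passing, a short list can hold 0 calls without differing from genes at large.

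On the Müller glia list, 0 of 11 measured genes passed limma's 2-fold test, beside 6.63% of all genes, and 0 had an unadjusted p below 0.05. The list median was 0.24 log2, beside -0.00480 for all genes tested, and 9 of the 11 means were above 0. The farthest from 0 was Gpr37, an orphan receptor of glia, at 0.95 ± 0.09, with array 1 apart at 0.79. Glutamine synthetase, Glul, stood at 0.71 ± 0.09, apolipoprotein E, Apoe, at 0.77 ± 0.06, the membrane protein gene Mlc1 at 0.68 ± 0.11 and the filament gene vimentin, Vim, at 0.04 ± 0.12. The 2 members below 0 were Dbi, an acyl-CoA-binding protein, at -0.78 ± 0.11 and below 0 on all 5 arrays, and the matrix protein gene Spon1 at -0.03 ± 0.11. Glul, Mlc1, Vim, Dbi and Spon1 lie outside the rule for named genes: they were picked with their values in view. The Müller cell markers Rlbp1, Slc1a3, Aqp4, Kcnj10 and Sox9 were not analysed here, so this list covers 11 of the 19 genes set down.

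On the astrocyte list, 4 of 13 measured genes were higher and 1 was lower in retina, with a median of 0.32 log2. The higher ones were the sodium pump subunit Atp1b2 at 2.07 ± 0.09, the secreted phagocytosis factor Mfge8 at 1.54 ± 0.09, the glycolytic enzyme aldolase C, Aldoc, at 1.34 ± 0.10, and the protease inhibitor cystatin C, Cst3, at 1.25 ± 0.12. The Cst3 call was lost without array 3 (mean 1.24) and without array 4 (mean 1.26), and with arrays scaled to the same spread; its adjusted p from limma was 0.0126, and between 0.00155 and 0.101 over 14 alternatives. The endothelin receptor gene Ednrb, which astrocytes, radial glia and vessels carry, was lower at -2.87 ± 0.15, or 7.33-fold. Ednrb ran from -3.05 to -2.69 over the arrays, below every value of Gja1 probe 14492. Aldoc lies outside the rule and was picked with its value in view.

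On the list of radial glia and progenitors, to which Gja1 also belongs, 2 of 17 measured genes were higher and 3 were lower in retina. The median was -0.44 log2. The receptor phosphatase gene Ptprz1, of radial glia, was lower at -1.85 ± 0.05. The stem cell factor Sox2 at -1.26 ± 0.15 and the cyclin gene Ccnd2 at -1.26 ± 0.04 were lower too, and are named outside the rule, with their values in view. The 4 probes of Ccnd2 ran from -2.10 to -0.01, a range of 2.09 log2 that is wider than the gap between the Gja1 probes. The lower count was 1 with arrays scaled to the same spread and 5 with the median probe in place of the mean over probes. For genes with 2 probes that rule takes the lower one, so it leans toward lower ratios. The higher genes were Pax6 at 2.99 ± 0.03 and Prom1 at 2.52 ± 0.15. Both also serve in adult retina, Pax6 in amacrine and ganglion cells and Prom1 in photoreceptor discs. Which cells carried the RNA of the higher or the lower genes of this list was not tested. Array 4 was low for Prom1, at 2.24, where the others gave 2.57 to 2.62.

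**Figure D4:**
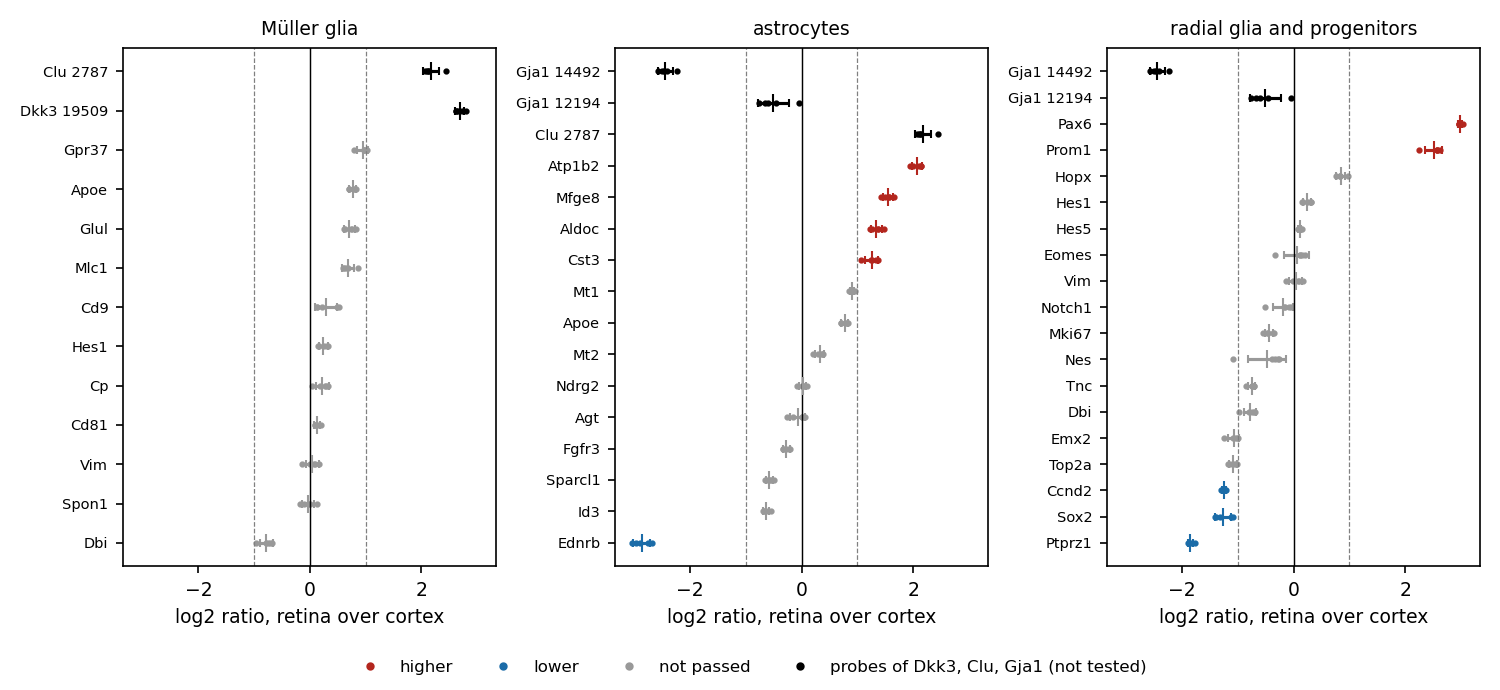
Log2 ratio of retina over cortex (horizontal axis) for the measured genes of 3 glial lists, with a point per array, a bar for the mean ± SD over 5 arrays and colour for the result of the 2-fold test; the probes of Dkk3, Clu and Gja1 stand at the top in black and were not tested. No tested gene of the Müller glia list passed, while the astrocyte list runs from Ednrb at -2.87 to Atp1b2 at 2.07.

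Around Dkk3, 6 genes of the Dickkopf family and other Wnt antagonists were measured. Of these, 0 passed limma's 2-fold test, beside 6.63% of all genes, and 1 had an unadjusted p below 0.05. The list median was -0.33 log2. The family member Dkk2 stood at -1.53 ± 0.59, 2.89-fold lower on the mean, where limma's adjusted p was 0.321, and between 0.125 and 0.901 over 14 alternatives. Arrays 1 and 3 gave -0.88 and -0.89, and the others -2.03 to -1.93. The arrays thus fell into separate levels for Dkk2. This was not particular to Dkk2: Wif1 and Gja3, given below, were also higher on arrays 1 and 3 than on the others. Dkk1 was not split that way, and the cause was not tested. Dkk1, the Wnt receptor antagonist, ran from -0.58 to 0.41 around a mean of -0.15 ± 0.42, so its sign was not settled. On these arrays the SDs of Dkk1 and Dkk2 were several times the 0.08 of Dkk3.

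Of the other antagonists, the Frizzled-related protein gene Frzb stood at 0.96 ± 0.07, and Wif1, which binds Wnt ligands, at -0.55 ± 0.37. The binding protein gene Igfbp4 stood at -0.51 ± 0.07. The mean of Znrf3, a ligase that removes Wnt receptors, was -0.09 ± 0.04 and turned to 0.04 with arrays centred on their mean. Among Wnt receptors and targets, 1 of 17 was higher and 0 were lower by limma's test, and 1 had an unadjusted p below 0.05. The gene called was Tcf7l1, a transcription factor that represses Wnt targets, at 1.45 ± 0.16. The list median was -0.24 log2.

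Around Clu, 2 of 13 measured genes of clusterin receptors and other extracellular chaperones and carriers were higher in retina and 0 were lower. The lipocalin Lcn2, an iron carrier, stood at 1.46 ± 0.29 where limma's adjusted p was 0.0404, and between 0.00844 and 0.158 over 14 alternatives. It ran from 1.15 to 1.83 over the arrays. Cst3 was the other. Both are close to the threshold: 1 of the 2 calls remained without array 2, and 0 without array 3, without array 4 and with arrays scaled to the same spread. The list median was 0.19 log2.

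The lipoprotein receptors that can take up clusterin were not past the test. Lrp1 stood at -0.97 ± 0.17, with its probes at -1.29 and -0.65, and Lrp2 at 0.09 ± 0.06. The receptor gene Plxna4 stood at -0.38 ± 0.09 with probes of opposite sign, -0.84 and 0.08. Stab1, a scavenger receptor, stood at -0.10 ± 0.04 and turned to 0.03 with arrays centred on their mean. Of the other secreted carriers, Apoe stood at 0.77 ± 0.06, the protease inhibitor A2m at 0.55 ± 0.09 and the apolipoprotein Apoa1 at 0.30 ± 0.23. The matrix protein genes Sparc and Sparcl1 stood at 0.19 ± 0.13 and -0.58 ± 0.07, so these relatives differ in sign. The relatives of the amyloid precursor differed too, with Aplp1 at -0.73 ± 0.05 and Aplp2 at 0.35 ± 0.03. On the list of complement, which clusterin restrains, 7 genes were measured. Of these, 0 passed limma's 2-fold test, beside 6.63% of all genes, and 0 had an unadjusted p below 0.05. The farthest from 0 was Cd55, a complement inhibitor of cell surfaces, at 0.67 ± 0.03, and the list median was -0.07.

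Around Gja1, 7 other connexins and pannexins were measured. Of these, 0 passed limma's 2-fold test, beside 6.63% of all genes, and 1 had an unadjusted p below 0.05. The list median was -0.02 log2. The one farthest from 0 was the channel gene Panx1 at -1.08 ± 0.04, which lay past 2-fold on all arrays, between -1.13 and -1.04. Its adjusted p from limma was 0.105, and between 0.106 and 1 over 14 alternatives. Gjc1, a connexin of neurons and vessel walls, stood at -0.55 ± 0.05. The lens connexin gene Gja3 was the noisiest, at -0.54 ± 0.71, from -1.67 on array 2 to 0.08 on array 3. The oligodendrocyte connexin gene Gjb1 stood at 0.08 ± 0.07, the skin connexin gene Gjb5 at 0.09 ± 0.02 and Panx3 at 0.31 ± 0.14. The vessel connexin gene Gja4 stood at -0.02 ± 0.13 and turned to 0.10 with arrays centred on their mean and to 0.02 without array 5.

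Of 13 measured partners of the Gja1 protein, 2 were lower and 0 were higher in retina. These were Ccn3, a secreted matricellular protein, at -2.29 ± 0.08, or 4.90-fold, and Dbn1, the actin-binding drebrin, at -1.51 ± 0.06. Ccn3 ran from -2.38 to -2.19 over the arrays. Of the other partners, Tjp1, the scaffold that binds the connexin tail, stood at 0.05 ± 0.19, named here outside the rule. The list median was -0.06 log2.

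**Figure D5:**
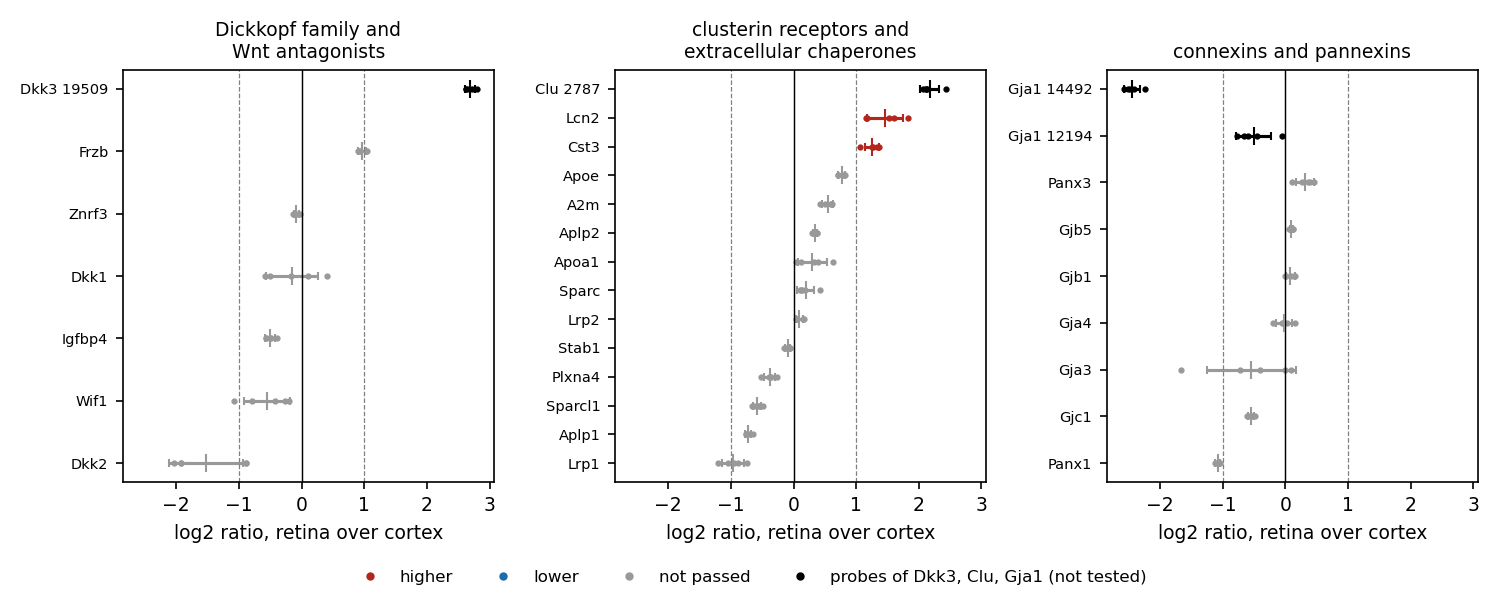
Log2 ratio of retina over cortex (horizontal axis) for the measured genes of the Dickkopf and Wnt antagonist, clusterin-related and connexin lists, drawn as points per array with a bar for the mean ± SD over 5 arrays; the probes of Dkk3, Clu and Gja1 stand at the top in black and were not tested. Dkk2 (-1.53) and Gja3 (-0.54) have the widest spread between arrays, and only Lcn2 and Cst3 are coloured as higher.

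Clu and Gja1 are also made outside glia, Clu in choroid plexus and Gja1 in meninges, so markers of those tissues are given with them. Of 4 measured genes of choroid plexus and ependyma, 2 were higher and 1 was lower. The water channel gene Aqp1 was at 2.39 ± 0.12 and the homeobox factor Otx2, which photoreceptors also make, at 3.42 ± 0.03, while transthyretin, Ttr, the most abundant of choroid plexus transcripts, was lower at -1.40 ± 0.04. Of 10 measured genes of meninges 3 were lower and 0 higher: Postn at -1.86 ± 0.27, Igfbp2 at -1.41 ± 0.04 and Dcn at -1.35 ± 0.21. The Dcn call was lost without array 3 (mean -1.37), without array 5 (mean -1.32) and with arrays centred on their mean. The part of these tissues in the ratios of Clu and Gja1 was not tested.

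Vessel genes were higher for 3 of 12 and lower for 0. The list median was -0.04 log2, and 7 of the 12 means were below 0. Flt1 stood at 1.44 ± 0.08 and the glucose transporter gene Slc2a1 at 1.29 ± 0.09. The third, the VEGF receptor gene Kdr, stood at 1.16 ± 0.08, and its call was lost without array 1 (1.16), array 2 (1.14) or array 5 (1.15). With arrays scaled to the same spread 1 vessel gene was called. The Slc2a1 probes read 0.05 and 2.53, and with the lower one it did not pass. Of the remaining lists, pigment epithelium had 1 of 2 lower (Ttr again) and red cells 1 of 4 lower (Hbb-b2 at -1.66 ± 0.07). By limma's test 0 of 2 lens, 0 of 4 muscle, 0 of 3 microglia and 0 of 3 oligodendrocyte genes passed, and the genes with an unadjusted p below 0.05 numbered 1, 0, 0 and 0. The farthest from 0 on these were Crygb at 1.22 ± 0.24, Mylpf at -0.83 ± 0.45, C1qc at -0.52 ± 0.10 and Olig1 at -1.01 ± 0.07. Centred on the array means, Crygb passed at 1.34.

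The neuron genes of both tissues also served above to read the direction of the ratios, so they are not a separate check of the labels. Of 5 measured rod and cone genes 5 were higher in retina, led by Cdhr1 at 4.30 ± 0.05, Otx2 and Opn1sw at 3.28 ± 0.09. Of 17 measured genes of newborn cortical neurons 13 were lower and 0 were higher, led by Mpped1 at -4.35 ± 0.12, Dcx at -3.99 ± 0.04 and Gap43 at -3.19 ± 0.13.

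The genes nearest to each member in ratio were taken as those with the smallest root mean square difference of log2 ratio over the 5 arrays. They share a level on these arrays, which says nothing of function. Whether they also vary alike from array to array was not tested. Nearest to Dkk3 were Mtfr1 (2.66 ± 0.10, distance 0.07), Ndnf (2.62 ± 0.05, distance 0.12) and Stx3 (2.58 ± 0.11, distance 0.12). The Stx3 value is the mean of probes at 1.47 and 3.69, neither of them near Dkk3. Mtfr1 acts on mitochondria, Ndnf encodes a secreted protein of neurons and Stx3 serves the photoreceptor synapse. Nearest to Clu were the kinase gene Nim1k (2.17 ± 0.03, distance 0.12), the zinc finger gene Zfp57 (2.27 ± 0.08, distance 0.12) and the G protein subunit gene Gnb1 (2.15 ± 0.10, distance 0.13). The Gnb1 value is the mean of probes at 1.95 and 2.36, which lie on either side of Clu.

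Nearest to the mean of the Gja1 probes were Sobp, Bex4 and Hddc2, at -1.48, -1.46 and -1.50, with distances of 0.08, 0.09 and 0.09. Neither probe lies near that mean, so each was set against the other genes too. Probe 14492 was nearest to Tmsb10 (-2.45 ± 0.01, distance 0.11), an actin-binding thymosin, the neuronal transcription factor Myt1l (-2.45 ± 0.04, distance 0.12) and Nme2 (-2.53 ± 0.05, distance 0.12). The Nme2 value is the mean of probes at -2.79 and -2.27. Probe 12194 was nearest to the laminin gene Lamb1 (-0.49 ± 0.19, distance 0.13), S100a9 (-0.46 ± 0.12, distance 0.15) and the noncoding RNA Gas5 (-0.57 ± 0.12, distance 0.16). Lamb1 is a mean of 3 probes from -1.14 to 0.12, so its closeness rests on that mean.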

How the data were processed

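The deposited table gives 1 signed value per probe and array; it was read as a log10 ratio from its values, since the deposited columns stop at 2 and -2. Per the file headers and the labels, no background correction, dye normalization, scanner software or filter is given in the sources used here. Values were multiplied by 3.32 to log2. An exact 0, which occurred 174 to 1068 times per array, was read as no value. The platform annotation gave 1 gene symbol for 11813 of 21446 probes and several for 559, and left 9074 unlisted; 11782 were named through a RefSeq table (assembly GRCm38.p6). The sources name no genome build for the array, so no coordinates are given. Each gene (mean over its probes) and each probe with a value on all 5 arrays was tested with limma 3.58.1 in R 4.3.3 (lmFit with an intercept, then treat with a log2 minimum of 1, two-sided, Benjamini-Hochberg, threshold 0.05). P-values measure the spread between arrays of the same pools only.

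The members and gene lists were chosen with earlier results of these data known. The rule named all measured genes of the Dickkopf, connexin and clusterin-related lists, up to 3 passing genes farthest from 0 of each other list (the farthest 1 where none passed) and the 3 genes nearest to each member. The 20 lists hold 350 genes besides the members, of which 153 were measured. Alternatives covered centring, scaling, missing values, the variance prior, the minimum fold, the probe rule, the log base and the omission of each array.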

Additional observations from a re-analysis of the deposited data

Results flagged for a closer look

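For 4 of 75 measures checked, 1 array stood far from the rest, where chance gives about 5% of measures. The Clu probe was high on array 5, at 2.44, where the others gave 2.07 to 2.14. Sparc read 0.42 on array 5 against 0.10 to 0.18 elsewhere. Prom1 read 2.24 on array 4 against 2.57 to 2.62, and Gpr37 read 0.79 on array 1 against 0.97 to 1.03. None of these changed sign between arrays.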

How the results depend on the processing

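With each array left out in turn, ratios were 2.66 to 2.70 log2 for Dkk3, 2.11 to 2.20 for Clu, -0.62 to -0.44 for Gja1 probe 12194, -2.50 to -2.41 for probe 14492 and 1.81 to 2.01 for the gap between the Gja1 probes. The fits then gave 528 to 562 genes, 1427 to 1513 probes and 38 to 39 list genes (41 with all arrays) past the 2-fold test. Centring on the array mean shifted the median of all genes by 0.13 log2. It raised all member probes alike: Dkk3 to 2.81, Clu to 2.30, and Gja1 probes 12194 and 14492 to -0.38 and -2.32. With this centring 266 of 562 passing genes were lower in retina, or 47.3%, against 57.8% as reported. Means of Gja4, Stab1 and Znrf3 then changed sign, to 0.10, 0.030 and 0.039. Without single arrays Gja4 ran from -0.065 to 0.021. Read as log2, the deposited values give 0.81 for Dkk3, 0.66 for Clu, and -0.15 and -0.74 for Gja1 probes 12194 and 14492, so each fold rests on the log base. A minimum of 1.5-fold gave 1408 genes and 3050 probes, and one of 4-fold 105 genes, 632 probes and 17 list genes, which follows from the minimum itself. Under the other alternatives the counts stayed between 464 and 623 genes, 1348 and 1537 probes, and 35 and 44 list genes. At the 2-fold minimum, 973 of the named gene values kept their sign and their side of the test, 16 fell below it, 1 passed it newly (Crygb) and 4 changed sign. Each ratio pairs both pools within an array. The arrays form 1 group, so no further pairing could be fitted. The cause of these changes was not tested.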

Other observations

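The 20 probes nearest in probe number to that of Clu had a median difference of 0.08 log2 on array 5 from their own means over the 5 arrays, where Clu differed by 0.27. Those nearest to Gja1 probe 12194 had a median difference of 0.05 on array 2, where that probe differed by 0.45.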
